A study of Mus musculus with 10 samples.

Results

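The genes followed here were 8 that mark excitatory and CA1 pyramidal neurons of the hippocampus (Camk2a, Slc17a7, Neurod2, Neurod6, Wfs1, Fibcd1, Pou3f1 and Mpped1) and Prox1, which marks granule neurons of the dentate gyrus. They were chosen by symbol for their known place in hippocampal cell types and make up 9 of the 53379 genes counted in 10 RNA-seq libraries of hippocampal cells. In the edgeR model of all 10 libraries Prox1 was the only one of the 9 to pass in any comparison: it was higher in appetitive-tagged than in neutral-tagged cells, where it had 7 counts over 3 libraries. In that comparison 6.17% of the 19754 genes tested passed. The neutral libraries were labelled total RNA and read on another sequencer, which cannot be told apart from the neutral experience. The 8 genes other than Prox1 were measured in every mock library and varied widely between tagged libraries. Wfs1 and Mpped1, for instance, were at or near 0 in aversive library 1 and within or near the mock range in aversive library 3.

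Pyramidal neurons are the glutamatergic principal cells of the hippocampus, and CA1 is the field that carries hippocampal output to cortex, amygdala and nucleus accumbens. Their identity is held by transcription factors of the bHLH family such as Neurod2 and Neurod6, and is read from proteins of the glutamatergic synapse such as VGLUT1 (Slc17a7) and CaMKII alpha (Camk2a). Granule neurons of the dentate gyrus are glutamatergic too, and are told apart from pyramidal cells by the homeobox factor Prox1, which CA1 pyramidal neurons lack and which is also made by some interneurons and by cells of the oligodendrocyte lineage.

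All mice were male and 5 weeks old by the labels. They carried a pair of AAV9 vectors aimed at ventral CA1, c-Fos-tTA and TRE-ChR2-EYFP, so that without doxycycline the c-Fos promoter drove ChR2-EYFP in active cells of any type the virus entered. Mice of the aversive group were given 4 foot shocks (1.5 mA, 2 s), the appetitive group was exposed to a female for 1 hour in a clean cage, the neutral group was placed in the conditioning cage without either stimulus, and the mock group stayed in the home cage. The labels give ChR2-YFP labelling for every sample, mock included, whereas the study's text calls mock an untagged control. By the labels hippocampal tissue of 8 mice was pooled per condition, dissociated and sorted for EYFP. The methods give 2 mice for mock, fewer than its libraries, and do not say which cells were sorted from mice without the tag. There were 3 mock, 2 aversive (numbered 1 and 3), 2 appetitive (1 and 2) and 3 neutral libraries. Nothing in the labels says that libraries of a condition came from separate pools of mice, so p-values measure only the spread between these libraries, which may be technical.

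Libraries held 16968588 to 67650693 counts, and 3 counts, taken as the smallest level a library can show, were worth 0.0346 to 0.235 normalized CPM, the count divided by the TMM-scaled library size in units of 1e+06 counts. These floors cover counting error only. The neutral libraries are labelled total RNA and were read at 100 bp on another sequencer, the others polyA RNA at 40 bp, so that library preparation and the neutral experience cannot be told apart in any comparison with neutral. Sorted material was not purely neuronal by its own counts. The 6 oligodendrocyte markers took 7.23 to 31.4% of counts in mock, 3.12 to 30.2% in aversive, 9.0 to 38.5% in appetitive and 0.923 to 4.49% in neutral libraries, whereas 7 pan-neuronal genes took 0.0163 to 0.0497% over all 10. The 5 choroid plexus markers took 2.71 to 13.8% in neutral libraries and 0.0407 to 1.01% in the others. In such bulk samples, fewer cells of a type and less RNA per cell cannot be told apart.

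The 9 genes were first read as present or absent. Each of the 3 mock libraries had more than 3 counts for all 9. Aversive library 1 had more than 3 counts for 2 of the 9 (Camk2a and Slc17a7) and aversive library 3 for 8 (all but Fibcd1). Appetitive libraries 1 and 2 had 5 and 4, and neutral libraries 1, 2 and 3 had 5, 6 and 5. The members were at 0 in 0 of 27 gene-by-library values in mock, 6 of 18 in aversive, 9 of 18 in appetitive and 4 of 27 in neutral. As shares these are 0, 33.3, 50 and 14.8%, and over all 19754 genes that passed the filter on low counts the shares of values at 0 were 5.50, 19.8, 36.5 and 17.4%. At or under 3 counts the members' shares were 0, 44.4, 50 and 40.7%, and those of all tested genes 10.9, 31.1, 52.8 and 21.1%, so that in neutral libraries the members' share was above that of all genes by this count and below it by exact zeros. Zeros were more common in tagged than in mock libraries for the transcriptome at large as well as for the identity genes. All 9 members passed the filter.

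**Figure D1:**
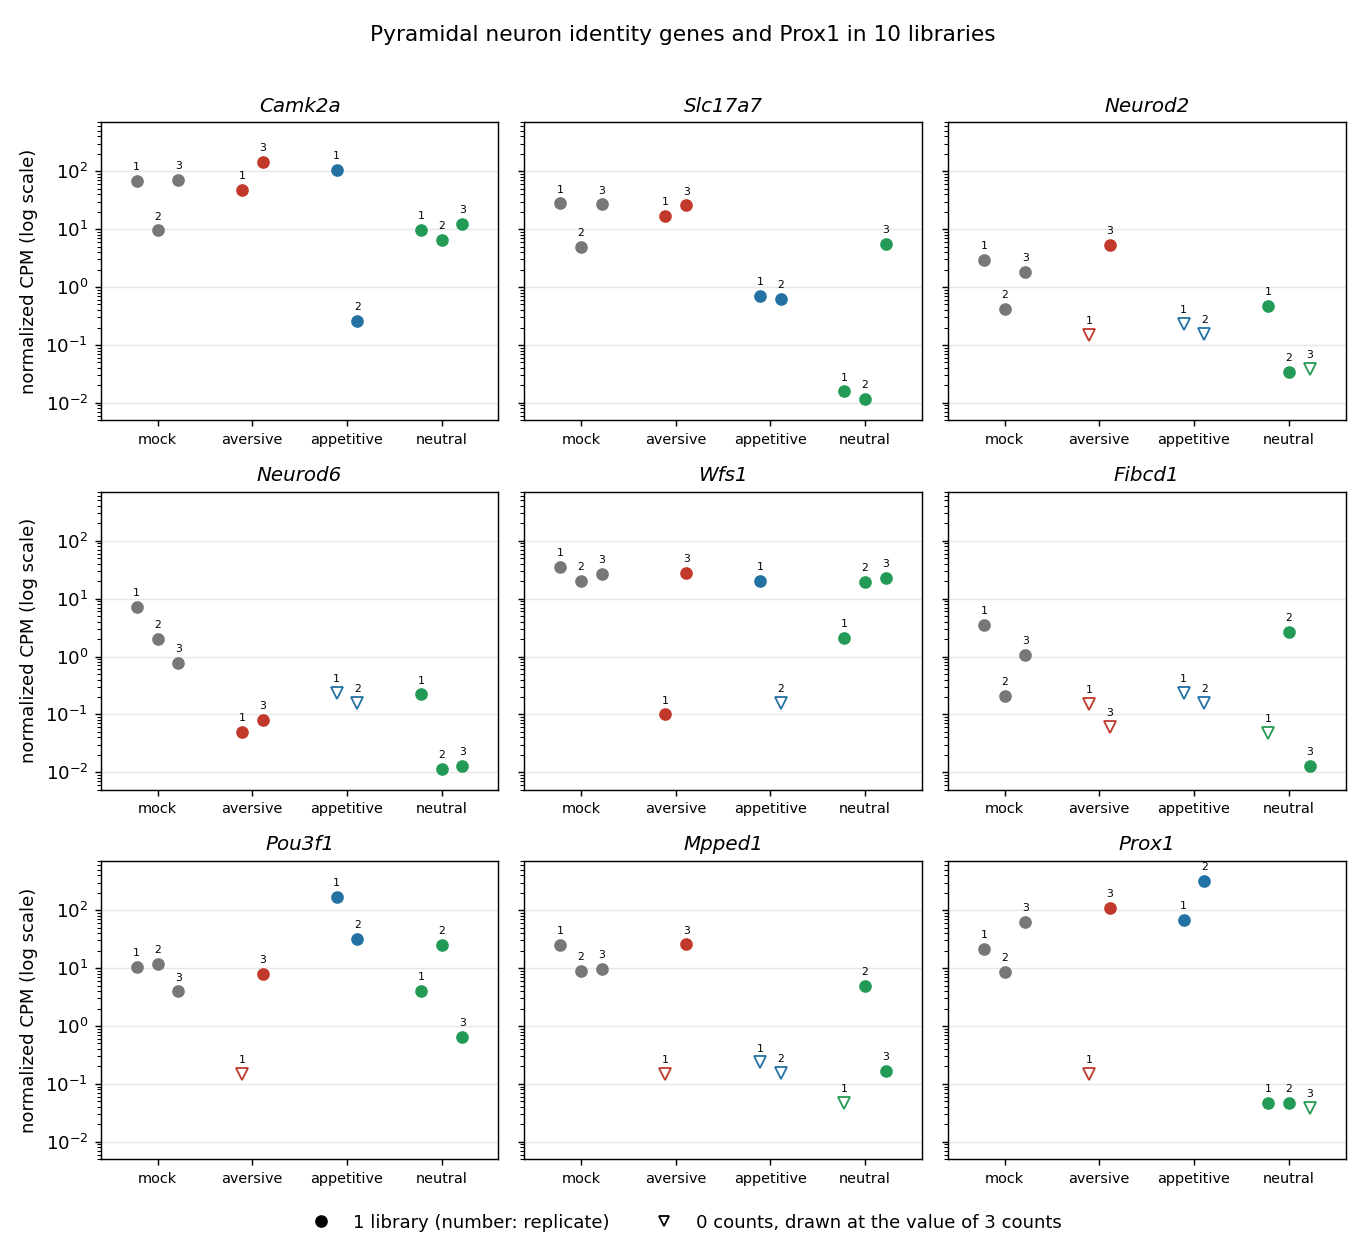
Normalized CPM (log scale) of the 9 genes in each library, by group; each filled point is 1 library and its number the replicate, and an open triangle is a library with 0 counts, drawn at the value of 3 counts. The mock points of every gene lie above 0, the aversive libraries 1 and 3 are far apart for Wfs1 (0.100 and 27.8 CPM), and Prox1 lies at 0 to 0.0473 CPM in neutral libraries against 68.2 and 316 in appetitive ones.

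Among genes of the excitatory synapse, Camk2a and Slc17a7 were followed first. Camk2a (GRCm38 chromosome 18, 60925618 to 60988152, plus strand) encodes the alpha subunit of the calcium/calmodulin-dependent kinase of synaptic plasticity in forebrain excitatory neurons. Its level was 68.6, 9.53 and 69.9 CPM in mock libraries 1, 2 and 3, 48.4 and 144 CPM in aversive libraries 1 and 3, 106 and 0.262 CPM in appetitive libraries 1 and 2, and 9.69, 6.48 and 12.5 CPM in the neutral libraries. Both aversive libraries lay above all neutral ones, and the appetitive libraries were the second highest and the lowest of all 10, the lower of them with 5 counts. The fitted log2 fold change of aversive against neutral was 3.33 (SE 1.59), which did not pass the test (edgeR quasi-likelihood, adjusted p = 0.281). In the order of means, aversive (96.4 ± 67.8, SD, n = 2), appetitive (53.1 ± 74.7, n = 2), mock (49.3 ± 34.5, n = 3) and neutral (9.56 ± 3.02, n = 3), all neighbours overlapped.

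Slc17a7 (chromosome 7, 45163949 to 45176142, plus strand) encodes VGLUT1, which loads glutamate into synaptic vesicles. It was measured at 27.9, 4.95 and 26.9 CPM in mock, at 16.8 and 25.7 CPM in aversive, at 0.704 and 0.629 CPM in appetitive, and at 0.0158, 0.0115 and 5.55 CPM in neutral libraries. The aversive libraries were within the mock range, both appetitive libraries were below all mock and aversive ones, and 2 neutral libraries had 1 count each while the third had 432. The appetitive libraries held 9 and 12 counts, above the floor of 3. The log2 fold change of appetitive against aversive was -4.99 (SE 2.60, adjusted p = 0.308), that of appetitive against mock -4.90 (SE 2.53, adjusted p = 0.248) and that of aversive against neutral 3.51 (SE 2.06, adjusted p = 0.368), none of which passed in edgeR. Without neutral library 3 the last was 10.34, so that 1 library set its size. Camk2a and Slc17a7 thus parted in appetitive library 1, where the kinase gene stood at 106 CPM and the transporter gene at 0.704 CPM.

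The bHLH factors Neurod2 and Neurod6, which drive and maintain differentiation of excitatory neurons, were low throughout. Neurod2 (chromosome 11, 98325415 to 98329648, minus strand) had 2.91, 0.417 and 1.84 CPM in mock libraries, 0 and 5.33 CPM in aversive libraries 1 and 3, 0 in both appetitive libraries, and 0.473, 0.0347 and 0 CPM in neutral ones. Mock and appetitive libraries did not overlap. Against the floor of appetitive library 1, the higher of the pair after TMM scaling, the appetitive level was at least 7.33-fold lower than the mock mean (edgeR adjusted p = 0.228) and at least 11.4-fold lower than the aversive mean, which rests on aversive library 3 alone (adjusted p = 0.257).

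Neurod6 (chromosome 6, 55677822 to 55681263, minus strand) was the member whose mock libraries stood apart from all others. It was at 7.25, 2.03 and 0.774 CPM in mock (182, 39 and 56 counts), at 0.0501 and 0.0802 CPM in aversive (1 and 4 counts), at 0 in both appetitive libraries, and at 0.221, 0.0115 and 0.0128 CPM in neutral (14, 1 and 1 counts). No tagged library reached the lowest mock library, although mock libraries spread 9.36-fold among themselves. On the log2 scale the difference was -5.60 (SE 2.55, adjusted p = 0.495) for aversive and -5.32 (SE 2.08, adjusted p = 0.289) for neutral against mock, and the appetitive level was at least 14.3-fold lower than mock (adjusted p = 0.138). None of the 3 passed in the edgeR model of all 10 libraries. Without mock library 1 the aversive and neutral differences were -4.36 and -4.21, and without neutral library 1 the latter was -7.80. All 3 passed in DESeq2, with adjusted p-values of 0.0353, 0.0113 and 0.00284, where 8.09, 7.76 and 26.1% of all genes with an adjusted p passed in the same comparisons. With only appetitive and mock libraries in the edgeR fit, the appetitive difference passed (adjusted p = 0.0489), where 21.8% of all tested genes passed.

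Because bHLH factors bind E-boxes (CANNTG, the same on both strands), the 250 bases before the RefSeq start of each member were searched in the RefSeq promoter table (GRCm38.p6), which holds 7 of the 9 members. The RefSeq start lay 556 bases from the GENCODE start for Mpped1 and 223 bases for Wfs1. The Mpped1 window and the E-box of Wfs1 thus lie inside the genes as annotated in GENCODE. At least 1 E-box was present in 5 of the 7 (Slc17a7, Neurod2, Neurod6, Wfs1 and Prox1) and in 66.2% of all 32851 promoters. The E-box read CAGATG or CATCTG, the form favoured by NeuroD proteins, in 3 of the 7 (Neurod2, Wfs1 and Prox1) and in 14.4% of all promoters. A match of letters is a description of the window and not a binding site. The window of Neurod6 (chr6:55681264-55681513, minus strand) is shown because this gene was low in every tagged library, with its E-boxes in capitals.
Neurod6: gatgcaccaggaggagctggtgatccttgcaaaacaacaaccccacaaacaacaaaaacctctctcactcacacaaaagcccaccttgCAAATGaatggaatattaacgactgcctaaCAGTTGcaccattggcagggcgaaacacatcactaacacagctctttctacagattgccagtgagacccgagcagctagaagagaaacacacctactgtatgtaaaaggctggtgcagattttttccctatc

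Among the CA1 markers, Wfs1 kept the mock level in most libraries. Wfs1 (chromosome 5, 36966104 to 36989205, minus strand) encodes wolframin, a membrane protein of the endoplasmic reticulum. It had 35.4, 20.1 and 26.7 CPM in mock, 0.100 and 27.8 CPM in aversive libraries 1 and 3, 20.6 and 0 CPM in appetitive libraries 1 and 2, and 2.11, 19.2 and 23.0 CPM in neutral libraries 1, 2 and 3. In each tagged group 1 library was low and the rest were near the mock range, so the groups overlapped in all 6 comparisons, and the smallest adjusted p was 0.706 (edgeR, appetitive against mock).

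Fibcd1 (chromosome 2, 31813290 to 31846005, minus strand), a receptor for acetylated compounds used as a marker of dorsal CA1, was the lowest member in mock. It was at 3.54, 0.208 and 1.06 CPM there, at 0 in all 4 aversive and appetitive libraries, and at 0, 2.63 and 0.0128 CPM in neutral libraries. Only neutral library 2, with 228 counts, reached the mock range among the tagged libraries. Aversive was at least 10.7-fold lower than mock (edgeR adjusted p = 0.495) and appetitive at least 6.84-fold lower (adjusted p = 0.243). With a mock library at 4 counts, a difference of this kind is close to what the depth can show.

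Mpped1 (chromosome 15, 83779467 to 83858494, plus strand) encodes a metallophosphoesterase-domain protein of the brain. Its level was 25.4, 9.01 and 9.84 CPM in mock, 0 and 25.6 CPM in aversive libraries 1 and 3, 0 in both appetitive libraries, and 0, 4.86 and 0.167 CPM in neutral ones. Aversive library 3 matched the highest mock library, while all appetitive and neutral libraries lay below the lowest. Appetitive was at least 62.8-fold lower than mock (adjusted p = 0.179) and at least 54.6-fold lower than aversive (adjusted p = 0.221), the latter resting on aversive library 3. Neutral against mock differed by -3.13 on the log2 scale (SE 2.45), with an adjusted p of 0.712, and by -2.56 to -7.41 as single libraries were left out, the latter without neutral library 2. None of these passed in the model of all 10 libraries. For appetitive against mock Mpped1 passed without the filter on low counts (adjusted p = 0.0352) and with only those 2 groups in the fit (adjusted p = 0.0417), where 3.19 and 21.8% of all tested genes passed.

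Pou3f1 ran the other way. Pou3f1 (chromosome 4, 124656807 to 124660655, plus strand) is a POU-domain transcription factor of CA1 and upper-layer cortical neurons that is also made by myelinating glia. It was at 10.4, 11.8 and 3.97 CPM in mock, at 0 and 8.04 CPM in aversive libraries 1 and 3, at 167 and 31.9 CPM in appetitive libraries 1 and 2, and at 4.02, 24.8 and 0.642 CPM in neutral ones. Both appetitive libraries were above the other 8. The log2 fold change of appetitive was 3.52 (SE 1.91, adjusted p = 0.265) against mock, 3.34 (SE 1.90, adjusted p = 0.249) against neutral and 4.63 (SE 2.36, adjusted p = 0.298) against aversive, none of which passed in edgeR. Without appetitive library 1 these were 1.64, 1.59 and 2.87. The difference from neutral was 5.43 without neutral library 2, and that from aversive 15.09 without aversive library 3. The latter value gives no size, because aversive library 1, then alone in its group, had 0 counts. The gene on the opposite strand, Gm2164, had 0 counts in all libraries. The share of counts taken by oligodendrocyte markers was 38.5% in appetitive library 1 and 9.0% in library 2, and its part in the Pou3f1 level was not tested.

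Prox1 (chromosome 1, 190118035 to 190170714, minus strand) gave the widest separation of groups. It had 21.7, 8.70 and 62.6 CPM in mock libraries (545, 167 and 4527 counts), 0 and 108 CPM in aversive libraries 1 and 3 (0 and 5387 counts), 68.2 and 316 CPM in appetitive libraries 1 and 2 (872 and 6028 counts), and 0.0473, 0.0462 and 0 CPM in neutral libraries (3, 4 and 0 counts). Every mock and appetitive library was above every neutral library, both appetitive libraries were above all mock ones, and the aversive libraries fell on both sides. Prox1 was higher in appetitive than in neutral libraries, by 12.47 on the log2 scale (SE 2.77, edgeR adjusted p = 0.0313). Since neutral held 7 counts in all, this size rests on few counts. By pooled CPM appetitive was 7044 times the neutral level (95% exact interval 3417 to 17526, counting error only). The interval leaves out the spread between libraries, and 6028 of the 6900 appetitive counts came from library 2.

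The same neutral libraries set the other large differences of Prox1. The log2 fold change of aversive against neutral was 10.64 (SE 2.61, adjusted p = 0.123) and reversed to -3.57 without aversive library 3, because aversive library 1 had no count. That of neutral against mock was -9.84 (SE 2.51, adjusted p = 0.174). By pooled CPM mock was 1461 times the neutral level (95% exact interval 709 to 3636, again counting error only). Away from neutral, Prox1 gave log2 fold changes of 2.63 (SE 1.90, adjusted p = 0.383) for appetitive against mock, 0.80 (SE 1.87, adjusted p = 0.921) for aversive against mock and 1.83 (SE 2.14, adjusted p = 0.742) for appetitive against aversive. Without aversive library 3, the fitted values were 16.04 for appetitive against aversive and -13.43, a reversal, for aversive against mock. Aversive library 1, with 0 counts, was then alone in its group, so these values give a direction and no size. Without appetitive library 2, appetitive against mock was 0.96 and appetitive against aversive 0.23. Without aversive library 1 the latter was 0.72, and aversive against mock ran from 0.34 without mock library 2 to 1.88 without mock library 3. The called difference is therefore one in which the total RNA, 100 bp neutral libraries were at or near 0, and appetitive cells were not shown to differ from mock or aversive cells. In the order of means, appetitive (192 ± 175 CPM, SD, n = 2), aversive (54.0 ± 76.3, n = 2), mock (31.0 ± 28.1, n = 3) and neutral (0.0312 ± 0.0270, n = 3), mock and neutral were the neighbours that did not overlap.

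The call for Prox1 was not stable. Its log2 fold change for appetitive against neutral stayed between 10.91 and 13.10 whichever library was left out. The adjusted p rose to 0.0598 to 0.0639 without mock library 1, 2 or 3 and to 0.0676 to 0.0902 without neutral library 1, 2 or 3, and stayed at 0.0111 to 0.0368 without any 1 of the aversive or appetitive libraries. With only the 5 appetitive and neutral libraries in the fit it was 0.0951. Fewer genes passed in general in these fits. With all 10 libraries 6.17% of all tested genes passed. Without mock library 1, 2 or 3 the share was 1.17, 1.17 and 1.49%, and without neutral library 1, 2 or 3 it was 2.03, 4.12 and 0.358%. With only the 5 libraries it was 0%.

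**Figure D2:**
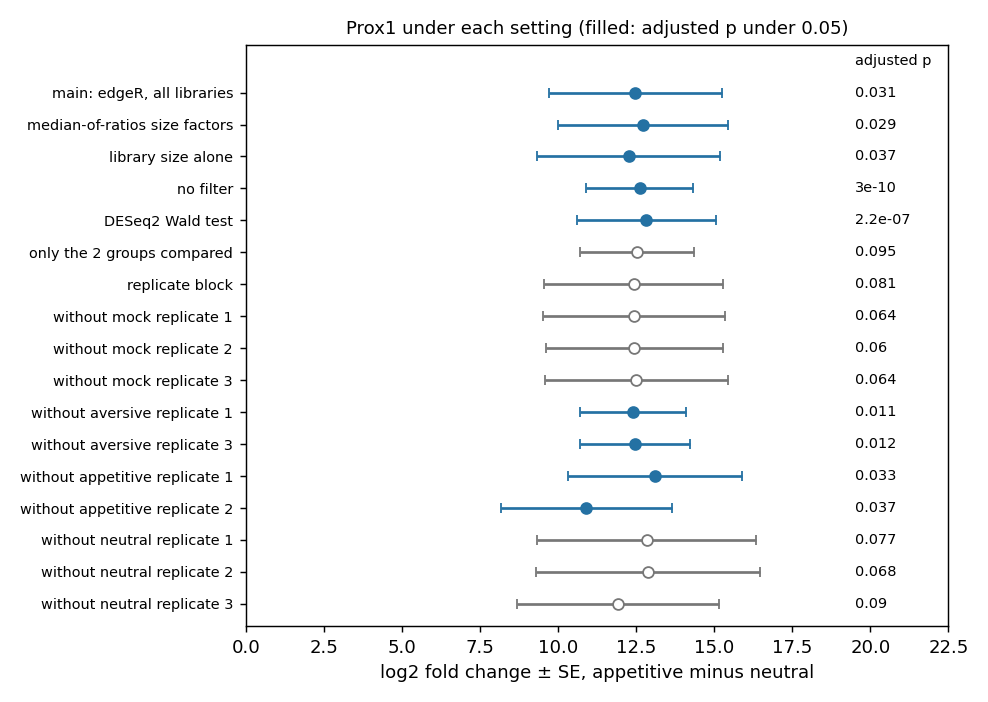
Log2 fold change ± SE of Prox1, appetitive minus neutral, under each setting (rows), with the adjusted p at the right; filled points have an adjusted p under 0.05. All 17 values lie between 10.91 and 13.10, and 8 of them are open points.

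The promoter window of Prox1 is shown because it carries the called difference. It spans 250 bases before the RefSeq start (GRCm38.p6, chr1:190170828-190171077, minus strand), and the capitals mark its E-boxes, the second of them the CAGATG form.
Prox1: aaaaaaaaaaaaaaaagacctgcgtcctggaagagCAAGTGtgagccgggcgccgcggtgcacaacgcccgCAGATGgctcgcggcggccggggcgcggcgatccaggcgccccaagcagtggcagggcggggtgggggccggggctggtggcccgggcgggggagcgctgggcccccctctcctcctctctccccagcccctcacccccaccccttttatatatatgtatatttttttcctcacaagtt

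Prox1 is annotated with exons that overlap those of Prox1os on the opposite strand, and the counting ignored strand, so reads of the overlap could not be assigned to one of them. Prox1os had 90, 112 and 257 counts in mock, 336 and 40 in aversive, 582 and 592 in appetitive and 0, 834 and 0 in neutral libraries. Aversive library 1 and neutral library 2 had Prox1os counts without Prox1 counts beyond 4, so the genes did not move as one.

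Other genes of granule neurons were read beside Prox1. Of 5 dentate genes, C1ql2, a secreted synaptic organizer of mossy fibres, had 1.71, 0.781 and 0.705 CPM in mock, 0 and 26.2 in aversive libraries 1 and 3, 0 and 14.8 in appetitive libraries 1 and 2, and 0 in all neutral libraries. It was thus present in aversive library 3 and appetitive library 2, where Prox1 was highest, and at 0 in appetitive library 1, where Prox1 was at 68.2 CPM. Tdo2 and Trpc6 had at most 1 count in each appetitive library, and Dsp had 5 and 16. Dsp had a mean of 13.1 CPM in neutral libraries. Plk5 was at 0 in both appetitive libraries and at 15.3 to 74.9 CPM in neutral ones, opposite to Prox1. For appetitive against neutral, C1ql2 was the 1 dentate gene that was higher and 4 were lower, with a median log2 fold change of -4.40. In the appetitive libraries Mog, a myelin protein gene of oligodendrocytes, stood at 550 and 3292 CPM. It was at 240 to 473 CPM in mock, 555 and 692 CPM in aversive and 60.7, 708 and 40.1 CPM in neutral libraries. Neutral library 2 had Mog at 708 CPM and Prox1 at 4 counts, and over all 10 libraries Pearson's r of the 2 genes was 0.65. The part of oligodendrocyte RNA in the Prox1 level was not tested.

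**Figure D3:**
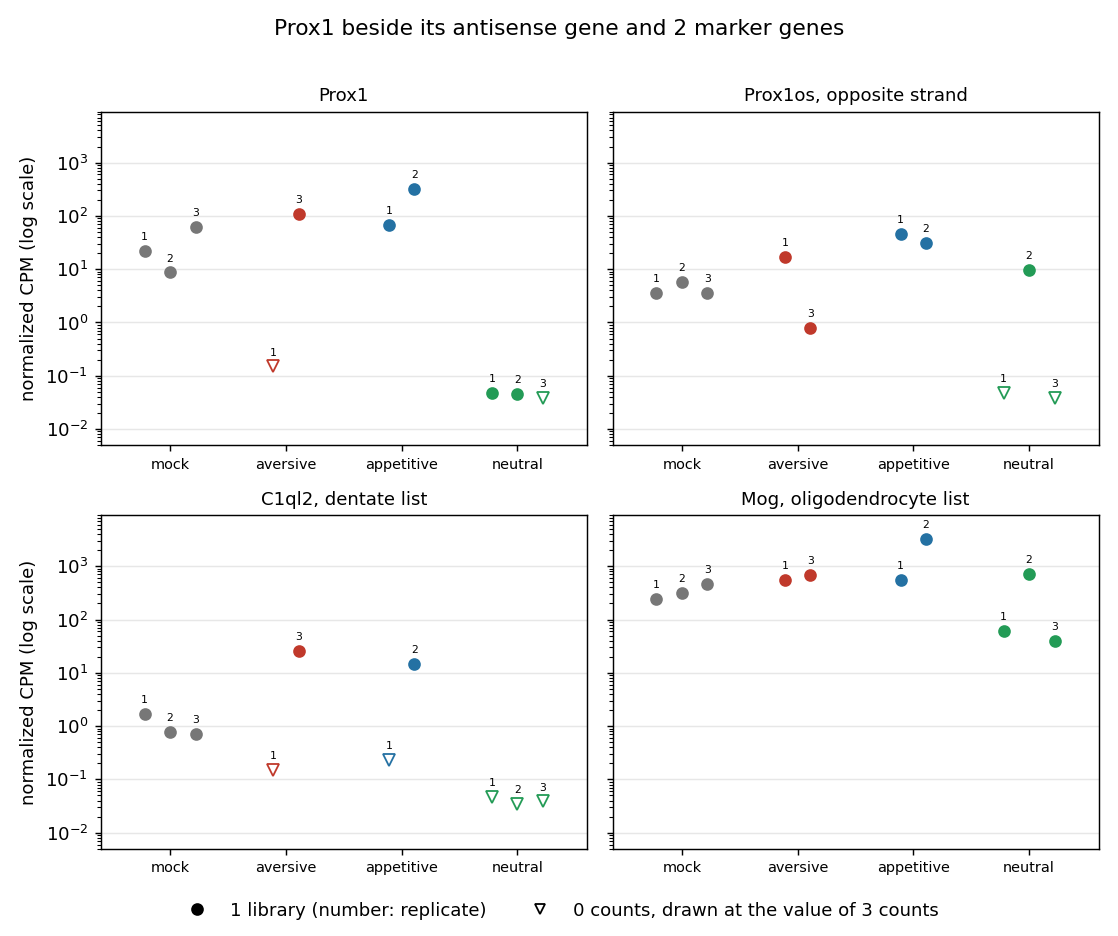
Normalized CPM (log scale) of Prox1, its antisense gene Prox1os, the dentate gene C1ql2 and the oligodendrocyte gene Mog in each library; points are libraries numbered by replicate, and open triangles are libraries with 0 counts, drawn at the value of 3 counts. Prox1 is at 68.2 and 316 CPM in appetitive libraries and at 0 to 0.0473 CPM in neutral ones. Mog is at 550 and 3292 CPM in appetitive libraries and at 40.1 to 708 CPM in neutral ones.

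Counted over the comparisons, 1 of the 9 members passed for appetitive against neutral, where 6.17% of all tested genes did. None passed for aversive against neutral (0.0405% of all tested genes), appetitive against aversive (1.8%), aversive against mock (0%), appetitive against mock (1.98%) or neutral against mock (0.0861%). At an unadjusted p under 0.05 in edgeR the members numbered 1, 1, 1, 0, 2 and 2. The order is aversive against neutral, appetitive against neutral, appetitive against aversive, aversive against mock, appetitive against mock and neutral against mock. Of all tested genes, 3765, 5779, 3941, 1968, 4696 and 2658 had such a p in that order. As shares these are 19.06, 29.25, 19.95, 9.96, 23.77 and 13.46%. In DESeq2 the members numbered 1, 1, 0, 1, 1 and 2 at an adjusted p under 0.05, in the same order. There 15.8, 28.3, 23.3, 8.09, 26.1 and 7.76% of all genes with an adjusted p passed. DESeq2 gave no adjusted p for Mpped1 in appetitive against mock or neutral against mock. It gave none for Pou3f1 in appetitive against neutral, aversive or mock. In those comparisons the member count is not out of all 9. Whether these 2 genes had an adjusted p in the other comparisons was not looked at, so those counts are not known to be out of all 9 either.

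Groups that did not overlap were counted likewise. For appetitive against mock, 7 of the 9 members did not overlap, 5 of them lower (Slc17a7, Neurod2, Neurod6, Fibcd1 and Mpped1) and 2 higher (Pou3f1 and Prox1), where 48.7% of all tested genes did not overlap. For the other comparisons the members numbered 2 for aversive against neutral (33.7% of tested genes), 3 for appetitive against neutral (38.6%), 3 for appetitive against aversive (28.4%), 2 for aversive against mock (36.1%) and 3 for neutral against mock (32%). In those 5 comparisons the member counts were near or below the background.

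The median log2 fold change of the 9 members was 2.93 for aversive against neutral, where that of all tested genes was -0.15, and -3.13 for neutral against mock, where it was 0.08. For appetitive against mock it was -4.90 by fitted values and -2.77 with the genes at 0 in appetitive set to their bounds, beside -1.45 for all tested genes. For appetitive against neutral it was -1.48 by fitted values, beside -0.91 for all tested genes. Over the 7 members that have a fold when bounds are used it was -0.52. This left out Neurod2 and Neurod6, both at 0 in appetitive and lower than neutral by fitted values (-5.93 and -4.90). The -0.91 is a fitted median from which no gene was left out, so the -0.52 is not a like measure. For appetitive against aversive it was -0.86 beside -0.48 and for aversive against mock -0.20 beside -0.13. The comparisons with neutral share the neutral libraries and those with mock share the mock libraries.

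Levels of different genes were compared per length, in CPM per kilobase of merged exons (RPKM). In mock the order was Wfs1 (7.23 ± 2.03, SD, n = 3), Camk2a (6.61 ± 4.62), Prox1 (3.69 ± 3.35), Slc17a7 (3.69 ± 2.40), Mpped1 (3.43 ± 2.14), Pou3f1 (2.26 ± 1.09), Neurod6 (1.56 ± 1.60), Neurod2 (0.548 ± 0.398) and Fibcd1 (0.338 ± 0.365). Neighbours in this order lay within their spread. In appetitive libraries Pou3f1 (25.9 ± 24.9, n = 2) and Prox1 (22.9 ± 20.9) were the highest of the 9, and 4 members were at 0. In aversive libraries Camk2a (12.9 ± 9.08, n = 2) was the highest and in neutral libraries Wfs1 (3.90 ± 2.94, n = 3), with Prox1 the lowest (0.00372 ± 0.00322).

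To set the identity genes against neuronal RNA in general, the summed RPKM of the 8 members other than Prox1 was divided by that of 7 pan-neuronal genes. The ratio was 0.887, 0.412 and 0.896 in mock, 0.0900 and 0.743 in aversive libraries 1 and 3, 0.595 and 0.211 in appetitive libraries 1 and 2, and 0.0608, 0.593 and 0.299 in neutral libraries 1, 2 and 3. All 4 groups overlapped. Between libraries of one group the ratio differed by 2.17-fold in mock, 8.26-fold in aversive, 2.82-fold in appetitive and 9.74-fold in neutral, and between the highest and the lowest group mean by 2.31-fold.

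**Figure D4:**
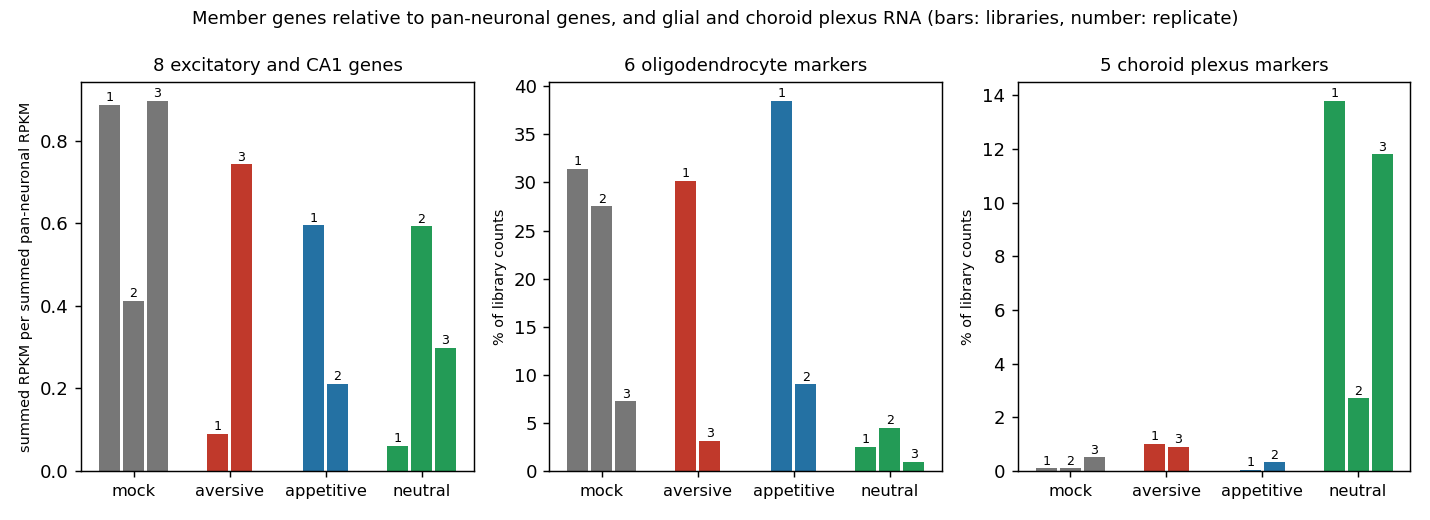
Left, summed RPKM of the 8 excitatory and CA1 genes divided by that of 7 pan-neuronal genes; middle and right, share of library counts (%) taken by 6 oligodendrocyte and 5 choroid plexus markers. Each bar is 1 library, numbered by replicate; the ratio ranges from 0.0608 (neutral 1) to 0.896 (mock 3), and choroid plexus markers reach 13.8% in neutral 1.

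Other neuronal genes were read in the same way. Of 16 further excitatory forebrain genes 15 were tested and 1 passed: Nrgn, a postsynaptic calmodulin-binding protein gene, was higher in appetitive (515 and 21.3 CPM) than in neutral libraries (10.8, 19.3 and 9.20 CPM), by 4.35 on the log2 scale (SE 1.12, adjusted p = 0.0456). Of 7 pan-neuronal genes Snap25, of the synaptic vesicle fusion machinery, passed in the same comparison, at 577 and 154 CPM in appetitive and 24.4, 15.1 and 21.2 CPM in neutral libraries (log2 fold change 4.18, SE 0.86, adjusted p = 0.0245). Both lay above the neutral range in each appetitive library, as Prox1 and Pou3f1 did. The medians of these lists in that comparison were -0.57 and 0.05, beside -0.91 for all tested genes.

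Of 5 ventral CA1 genes, Htr2c (the serotonin 2C receptor, abundant in choroid plexus as well) fell to 0 in both appetitive libraries from 487, 98.0 and 321 CPM in neutral and 6.66 and 25.2 CPM in aversive ones, at least 1288-fold lower than neutral (adjusted p = 0.0173) and at least 67.9-fold lower than aversive (adjusted p = 0.0428). Mock libraries had 1.04, 2.08 and 15.1 CPM. Of 6 CA2 genes, Amigo2, an adhesion molecule, was lower in appetitive (0.0782 and 0 CPM) than in neutral libraries (21.3, 54.5 and 73.3 CPM; log2 fold change -10.37, SE 2.32, adjusted p = 0.0318). Of 5 dentate genes, Plk5, a polo-like kinase gene, was at 0 in appetitive libraries against 74.9, 15.3 and 53.2 CPM in neutral (at least 204-fold lower, adjusted p = 0.0173) and 29.7 and 37.2 CPM in aversive ones (at least 142-fold lower, adjusted p = 0.0264).

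The choroid plexus list moved with these genes. Of its 5 genes 4 passed as lower in appetitive than in neutral libraries: Ttr (-5.44), Folr1 (-7.05), Clic6 (-10.18) and Otx2 (-12.57), as log2 fold changes. Ttr, the transthyretin gene, stood at 128856 CPM in neutral library 1. What part choroid plexus RNA had in the values of Htr2c, Amigo2 and Plk5 was not tested. None of the 9 identity genes was at its highest in any neutral library.

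Of 4 CA3 genes 3 were tested and of 6 interneuron genes 4, and none passed in any comparison. By mean CPM their leading genes were Bok and Sst. Bok was at 24.4, 34.7 and 18.2 CPM in mock, 74.7 and 1.00 CPM in aversive, 62.1 and 26.1 CPM in appetitive and 1.40, 27.2 and 41.9 CPM in neutral libraries. Sst, the somatostatin gene, was at 3.90, 4.79 and 1.81 CPM in mock, 20.4 and 3.53 CPM in aversive, 37.1 and 0.0524 CPM in appetitive, and 0.694, 0 and 0.450 CPM in neutral libraries.

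Among glial lists, no oligodendrocyte, microglial or endothelial gene passed, and Mbp, C1qb and Cldn5 were their highest genes by mean CPM. Of 6 astrocyte genes Slc1a2, a glutamate transporter gene, was higher than neutral in aversive libraries (log2 fold change 7.51, adjusted p = 0.0357) and in appetitive ones (6.45, adjusted p = 0.0102) and lower in neutral than in mock (-6.53, adjusted p = 0.0482). Slc1a3, of the same family, was higher in appetitive than in neutral libraries (3.85, adjusted p = 0.0254) and lower in neutral than in mock (-5.52, adjusted p = 0.0482). The neutral libraries were thus low in astrocyte as well as in Prox1 RNA, and not in these alone. Against mock all 6 microglial genes were lower without overlap (median log2 fold change -4.28, beside 0.08 for all tested genes), though none passed. All 6 oligodendrocyte genes were lower too, 2 of them without overlap (median -0.77). Of 5 endothelial genes 4 were lower and 1 higher, and all 5 choroid plexus genes were higher.

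Likeness was measured as Pearson's r of log2(CPM + 1) over the 10 libraries, which share their groups and preparation, as a description. With the mean of the 8 members other than Prox1, the closest tested genes were Lhx2 (r = 0.932, Spearman's rho = 0.915), Map2 (r = 0.931, rho = 0.903) and Spag9 (r = 0.924, rho = 0.879). Lhx2, a LIM homeobox factor of the forebrain, had 116, 35.4 and 25.7 CPM in mock, 5.25 and 80.8 in aversive, 40.0 and 0 in appetitive and 2.05, 9.01 and 0.848 in neutral libraries. With Prox1 the closest were Thbs4 (r = 0.988, rho = 0.935), Gm15660 (r = 0.964, rho = 0.935) and Erf (r = 0.959, rho = 0.954). Thbs4, a thrombospondin gene, was at 0 in aversive library 1 and in all 3 neutral libraries, the libraries in which Prox1 had at most 4 counts, and at 25.1 CPM in appetitive library 2, where Prox1 was highest. The r of Prox1 was 0.73 with C1ql2 and 0.65 with Mog, and its r with the 8 other members ran from -0.07 (Fibcd1) to 0.56 (Pou3f1). Among the 8, the closest pair was Neurod2 and Mpped1 (r = 0.84).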

How the data were processed

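Gene expression was measured by RNA-seq in sorted hippocampal cells. The labels describe an EYFP sort for every sample, but what was sorted for mock, called untagged in the study's text, is not stated. The labels give SMART-Seq v4 protocols under more than 1 kit description, and the neutral libraries differ from the rest in RNA type, sequencer and read length. Reads were trimmed to their first 40 bp and aligned to mm10 by STAR, and featureCounts then gave whole-number counts per Ensembl gene, ignoring strand. These counts, not normalized, are the values the authors deposited, for 53379 genes in each of 10 libraries. Groups and replicate numbers came from the labels. Identifiers were matched to GENCODE M21 (GRCm38; 53274 matched), from which positions and exon lengths came.

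The test was that of edgeR 4.0.16 under R 4.3.3, with TMM factors (0.480 to 1.45), filterByExpr (19754 genes), 1 quasi-likelihood model of 4 groups and 10 libraries (common dispersion 1.49, prior degrees of freedom 5.05), 6 comparisons, two-sided p-values adjusted by Benjamini-Hochberg over all tested genes and called at 0.05. SEs were derived from the F statistics. CPM and RPKM values are TMM-normalized. A group whose libraries were all at 0 is given as a lower bound against 3 counts in its library with the highest floor. Total counts per library were 16968588 to 67650693.

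Fitted fold changes are printed for pairs of groups whose libraries did not overlap and, for Prox1, for all 6. From the other lists each gene passing in any comparison is named, otherwise the one with the highest mean CPM, and for likeness the 3 closest tested genes. C1ql2, Mog, Dsp, Tdo2, Trpc6 and the correlations of Prox1 with C1ql2 and Mog were chosen after their values were seen. The members and lists were chosen with earlier results of these data known.

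Alternatives were median-of-ratios size factors, library size alone, no filter, DESeq2 1.42.0, only the 2 groups compared, a replicate block, no neutral libraries, and leaving out each library. The steps were tested on simulated data. E-boxes were searched in the RefSeq promoter table. Reads were not used here.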

Additional observations from a re-analysis of the deposited data

Results flagged for a closer look

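For 2 genes the aversive and appetitive libraries all lay on opposite sides of the mean of a reference group, though not of its range. Slc17a7 was above the neutral mean of 1.86 CPM in both aversive libraries and below it in both appetitive ones, and the difference itself, a log2 fold change of -4.99 for appetitive against aversive, did not pass in edgeR (adjusted p = 0.308; 0.0863 to 0.858 over the alternatives). Pou3f1 was above the neutral mean of 9.82 CPM and the mock mean of 8.71 CPM in both appetitive libraries and below both in both aversive ones, with a log2 fold change of 4.63 that did not pass either (adjusted p = 0.298; 0.0872 to 0.877 over the alternatives). For Slc17a7 neutral library 3 (5.55 CPM) set the neutral mean. Both appetitive libraries lay above neutral libraries 1 and 2 (0.0158 and 0.0115 CPM). For Pou3f1 aversive library 3 (8.04 CPM) was within the neutral range (0.642 to 24.8 CPM) and the mock range (3.97 to 11.8 CPM). DESeq2 gave no adjusted p for the Pou3f1 difference. No group had the 4 libraries needed to look for a library standing apart.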

How the results depend on the processing

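The counts of members called did not change in any comparison with median-of-ratios size factors or library size alone, nor in the 3 comparisons that could be run without the neutral libraries. The scaling moved the median of all tested genes most for appetitive against neutral, from -0.91 to -0.63 and -1.45 on the log2 scale. Without the filter 1 member passed for aversive against neutral and 1 for neutral against mock (both Prox1), and 1 for appetitive against aversive and 1 for appetitive against mock (both Mpped1), where 2.45, 1.47, 3.6 and 3.19% of all tested genes did. With DESeq2 1 passed for aversive against neutral (Prox1), 1 for aversive against mock and 1 for appetitive against mock (both Neurod6), and 2 for neutral against mock (Neurod6 and Prox1), where 15.8, 8.09, 26.1 and 7.76% of all genes with an adjusted p did. DESeq2 gave no adjusted p for Mpped1 or Pou3f1 in appetitive against mock, nor for Mpped1 in neutral against mock. With only the 2 groups compared, 0 passed for appetitive against neutral and 3 for appetitive against mock (Neurod2, Neurod6 and Mpped1), where 0 and 21.8% of all tested genes did. Leaving out each library gave 0 to 1 for appetitive against neutral, the call for Prox1 being lost without any 1 mock or neutral library, and 0 to 1 for appetitive against aversive (Prox1 without aversive library 3, Camk2a without appetitive library 1, where 3.68 and 3.22% of all tested genes passed). In the other 4 comparisons it gave 0. Both calls for appetitive against aversive came from fits that left 1 library in a group, and for Prox1 that library had 0 counts. Without 1 mock or neutral library, 0.358 to 4.12% of all tested genes passed for appetitive against neutral, beside 6.17% with all 10 libraries. The cause was not tested. Prox1 reversed for aversive against neutral (-3.57 to 11.68 over the libraries left out) and for aversive against mock (-13.43 to 1.88), in both without aversive library 3. The aversive library then left had 0 counts, so the lower ends of these ranges are fitted values without a measured size.

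Same-numbered libraries did not deviate together in every pair: their deviations from the group means correlated at -0.04 to 0.16 over 12 pairs, and those of other pairs at -0.16 to 0.12 over 25, so that the numbers were not taken to pair the libraries. With the number as a replicate block, 0 members passed for appetitive against neutral (Prox1, adjusted p = 0.0807; 0.37% of all tested genes passed), the other counts stayed the same, and Prox1 reversed to -0.38 for aversive against mock.

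With a coefficient of variation of 122% between libraries of a group by the common dispersion, 2 or 3 libraries a group, and members often under 10 CPM, a difference that did not pass is not shown to be absent. At the depth of appetitive library 1, levels below 0.235 CPM cannot be told from 0.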
